A study of Mus musculus with 6 samples.

Results

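The laminin chain genes described here are Lama1, Lama3, Lama5, Lamb1, Lamb2, Lamb3 and Lamc1, taken by gene symbol from the deposited count table. They are 7 of its 24594 rows. The table holds RNA sequencing read counts from cultured organoids of mouse small intestine, miniature epithelia that form buds like crypts and regions like villi. According to the labels, growth from single cells took 96 h, after which the crypt-villus organoids received either NIBR-LTSi (5 uM) or a corresponding amount of the solvent DMSO for 24 h. The labels give 3 libraries to each group and name no strain, age or genotype. NIBR-LTSi blocks the kinases LATS1 and LATS2 of the Hippo pathway, which restrain the co-activators YAP and TAZ, and the comparison asks how laminin transcripts differ once they are blocked.

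Laminins are large secreted proteins of the basement membrane, the thin matrix sheet on which epithelium rests. Each is a cross-shaped trimer of an alpha, a beta and a gamma chain joined by a long coiled coil. The alpha chain ends in globular domains that bind integrins and dystroglycan on the cell surface, and the short arms of several chains link neighbouring trimers into a network. In the intestine both epithelium and underlying mesenchyme supply laminin chains, and the chain makeup differs along the axis from crypt to villus.

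With NIBR-LTSi, Lama3, Lama5, Lamb2, Lamb3 and Lamc1 rose, no chain fell, and Lama1 and Lamb1 had too few reads to be tested. The rises ran from 1.61-fold for Lamc1 to 4.71-fold for Lamb2. A gene was called when its adjusted p in edgeR's quasi-likelihood test was under 0.05, with Benjamini-Hochberg adjustment over all 12592 tested genes. By that rule 5 of the 7 members were higher and 0 lower (0 lower also at an unadjusted p under 0.05, in limma-voom and in DESeq2), beside 22.8% of all tested genes called higher and 42.0% called in either direction. The 5 tested members had a median log2 fold change of 1.21, beside 0.02 over all tested genes. Of these 5, Lamb2 passed the filter on low counts only through the NIBR-LTSi libraries, so its place among the tested genes depended on its being higher there. A filter on the mean over all 6 libraries, which does not use the groups and was added after seeing the data, kept the count at 5. The DMSO mean of Lamb2 alone was below that cutoff, so its place still depended on the NIBR-LTSi libraries.

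Library totals ranged from 18395427 to 26767043 reads. Levels are given as CPM, reads scaled to a common library total, after TMM normalisation, and 1 read was worth 0.0366 to 0.0556 CPM. The 6 epithelial markers Epcam, Cdh1, Krt8, Krt18, Krt20 and Vil1 together reached 6249 to 6324 CPM in DMSO libraries and 6752 to 7215 CPM in NIBR-LTSi libraries. These markers did not move one way, since Krt8 and Krt18 were called higher (2199 ± 10 to 3024 ± 165 CPM for Krt8), Vil1 was called lower (1353 ± 24 to 1032 ± 12 CPM), and the other 3 were not called. The 6 fibroblast markers together had 0 to 4 reads per library, with Dcn and Lum at 0 throughout, and the 4 smooth muscle markers had 3 to 10, with Des and Cnn1 at 0. Of the 4 endothelial markers, Cdh5, Kdr and Emcn were at 0 in every library, and the list summed to 0.601 to 0.614 CPM in the first group and 0.219 to 0.491 CPM in the second. The 3 enteric glia markers summed to 0.561 to 0.667 and 0.723 to 0.982 CPM, with Sox10 at 0. The 4 immune markers summed to 7.81 to 8.28 and 9.04 to 9.40 CPM, almost all of it Itgam, with Cd3e at 0. These are bulk libraries, so more cells of a type that makes a chain and more RNA of that chain per cell cannot be told apart.

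**Figure D1:**
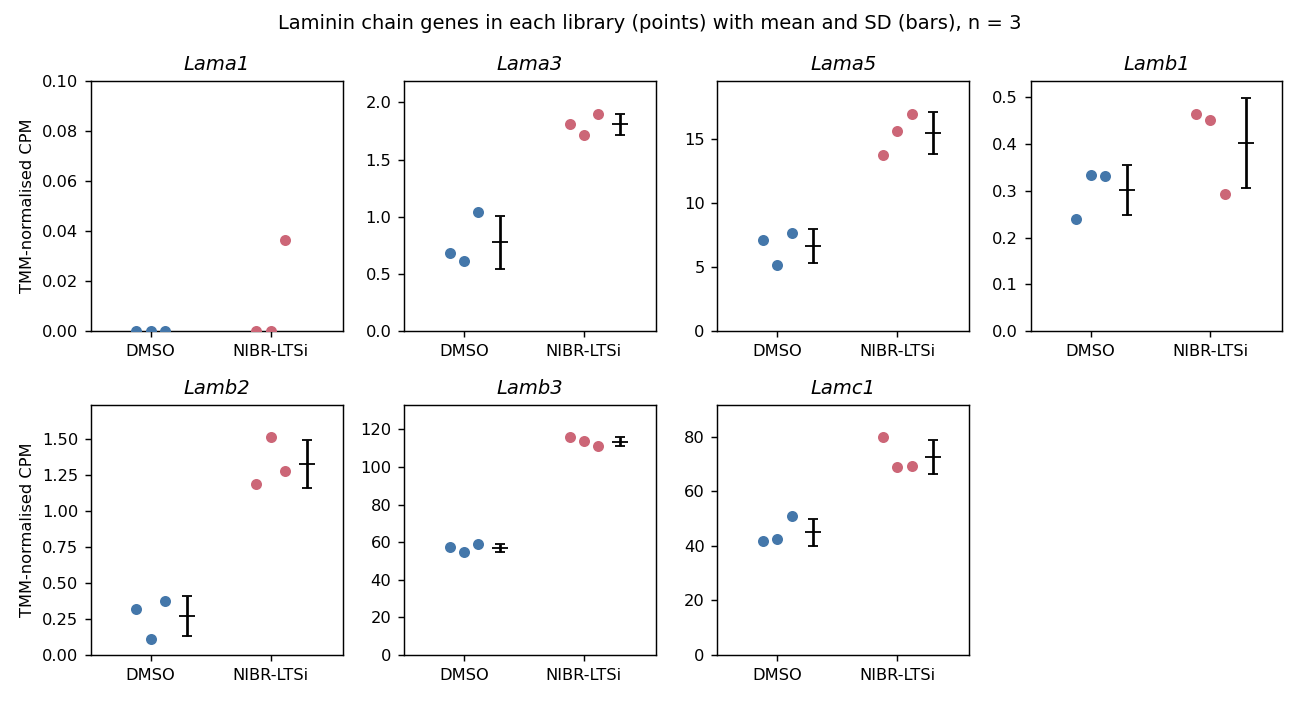
TMM-normalised CPM of the 7 laminin chain genes in each library (points, blue for DMSO and red for NIBR-LTSi), with the mean and SD of 3 libraries as bars (none drawn for Lama1, which had 1 read in all). Each panel has its own axis starting at 0. In Lama3, Lama5, Lamb2, Lamb3 and Lamc1 every NIBR-LTSi library lay above every DMSO library.

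The alpha chains decide which receptors a laminin binds, and Lama5 was their main transcript here. Lama5 (Entrez 16776; GRCm38, chromosome 2, 180176373 to 180225904, minus strand) encodes alpha 5, the chain of the most widespread laminins of adult epithelial basement membranes. Its counts were 178, 93 and 163 in DMSO replicates 1 to 3, or 7.13, 5.17 and 7.70 CPM. With NIBR-LTSi they were 266, 382 and 465, or 13.7, 15.6 and 17.0 CPM. All NIBR-LTSi libraries were above all DMSO libraries, as was so for 28.0% of tested genes. The group means were 6.66 ± 1.33 and 15.5 ± 1.6 CPM (SD, n = 3), and the log2 fold change was 1.21 ± 0.13 (SE; edgeR adjusted p = 3.82e-05). DMSO replicate 2 was the lowest library for Lama5, and in it the 1329 tested genes with a width of 8000 to 12000 bases also had the lowest median, at -0.10 on the log2 scale against the mean of the 6 libraries. Over those 1329 genes the median log2 fold change was 0.08, and 29.8% were called higher. With each library's trend against gene width taken out, the log2 fold change of Lama5 was 1.10 ± 0.12 (edgeR adjusted p = 3.63e-06).

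Lama3 (Entrez 16774; chromosome 18, 12333417 to 12583013, plus strand) encodes alpha 3, the alpha chain of the laminin that anchors epithelia through hemidesmosomes. It had 17, 11 and 22 reads with DMSO and 35, 42 and 52 with NIBR-LTSi. These were 0.681, 0.611 and 1.04 CPM in the first group and 1.81, 1.72 and 1.90 CPM in the second, with no overlap. The log2 fold change was 1.21 ± 0.27 (edgeR adjusted p = 0.00360), almost the same point estimate as for Lama5 but with an SE larger than that of the deeper gene. In the GENCODE M21 annotation 197 exonic bases of Lama3 lie opposite an exon of the antisense gene Gm29200. Whether the counting used strand is not given in the sources used here, so reads from those bases could belong to either gene.

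Lama1 (Entrez 16772; chromosome 17, 67697127 to 67822645, plus strand) encodes alpha 1, a chain prominent in embryonic basement membranes. It had 1 read in all, in NIBR-LTSi replicate 3, and 0 in the other 5 libraries. A count of 0 allows up to 3 reads, which is 0.120 to 0.167 CPM in those 5 libraries, so a difference in Lama1 was not detectable at this depth. Such limits cover counting error only.

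The beta chains had the highest and some of the lowest levels of the family, and Lamb3 led. Lamb3 (Entrez 16780; chromosome 1, 193294353 to 193343878, plus strand) encodes beta 3, a chain of epithelial laminin, and loss of this chain in people causes junctional blistering of the skin. Its counts were 1434, 983 and 1249 with DMSO and 2242, 2780 and 3035 with NIBR-LTSi. In CPM these were 57.4, 54.6 and 59.0 against 116, 114 and 111, so the groups stood far apart and each was tight. The mean was 57.0 ± 2.2 CPM and then 113 ± 2 CPM (SD, n = 3), which gave a log2 fold change of 0.99 ± 0.05 (edgeR adjusted p = 1.57e-08). In GENCODE M21 no exon of another gene overlaps those of Lamb3. The gene span which that annotation gives Lamb3 does overlap G0s2 and Hsd11b1, both on the other strand.

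Lamb2 (Entrez 16779; chromosome 9, 108479847 to 108490530, plus strand) encodes beta 2, a chain best known from the kidney glomerulus and the neuromuscular junction. It was rare, with 8, 2 and 8 reads under DMSO and 23, 37 and 35 under NIBR-LTSi. The levels were 0.320, 0.111 and 0.378 CPM against 1.19, 1.51 and 1.28 CPM, again without overlap. Its log2 fold change of 2.24 ± 0.37 (edgeR adjusted p = 4.57e-04) was the highest point estimate of the family. It rests on 18 reads in the DMSO group, and it was 1.92 without DMSO replicate 2, the library with 2 reads. Among tested genes with a mean of at least 5 CPM, the 3 whose log2 CPM ran closest to Lamb2 over the 6 libraries, by Euclidean distance after centring on DMSO, were Myo5a, an actin-based motor (distance 0.46), Plaur, the urokinase receptor (0.64), and Sorbs2, an adaptor of actin and adhesion sites (0.75). The log2 CPM used for this had a prior count of 2 added, which damps differences at low counts. On that scale Lamb2 itself ranged over 1.22 log2 units in the DMSO libraries. All 3 distances are below that range, so the order of these neighbours is uncertain. Myo5a went from a mean of 2.47 to 9.97 CPM, Plaur from 5.18 to 23.7 CPM and Sorbs2 from 2.42 to 8.65 CPM.

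Lamb1 (Entrez 16777; chromosome 12, 31265146 to 31329644, plus strand) encodes beta 1, the partner of gamma 1 in many laminins. It had 6, 6 and 7 reads with DMSO and 9, 11 and 8 with NIBR-LTSi, and the CPM ranges overlapped (0.240 to 0.333 against 0.292 to 0.465). It did not pass the filter. In a fit with no filter its log2 fold change was 0.41 ± 0.53 (edgeR adjusted p = 0.610), an interval too wide to separate no change from a rise as large as that of Lamc1.

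Lamc1 (Entrez 226519; chromosome 1, 153218922 to 153332786, minus strand) encodes gamma 1, the most common gamma chain and the one that binds nidogen. Its counts were 1045, 763 and 1076 with DMSO and 1547, 1688 and 1894 with NIBR-LTSi. In CPM the DMSO libraries were at 41.9, 42.4 and 50.8 and the NIBR-LTSi libraries at 79.9, 69.1 and 69.2. DMSO replicate 3 and NIBR-LTSi replicate 1 were the high libraries of their groups, and the groups did not overlap. The log2 fold change of 0.69 ± 0.09 (edgeR adjusted p = 2.26e-04) was the smallest among the tested members, and it was 0.61 ± 0.07 with the width trend taken out.

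Of further laminin chain genes, Lama2, a chain of muscle and mesenchymal basement membranes, had 2 reads in all 6 libraries together, Lama4, a chain of vessel walls, had 5, and Lamc3 had 0. None of these 3 passed the filter.

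Levels of different chains can be set side by side only per length, here as CPM per kb of the deposited gene width. With DMSO the order was Lamb3 (10.7 ± 0.4), Lamc1 (5.44 ± 0.61), Lama5 (0.585 ± 0.117), Lama3 (0.0723 ± 0.0214), Lamb2 (0.0444 ± 0.0231) and Lamb1 (0.0304 ± 0.0053). In that group the ranges of Lama3 and Lamb2 overlapped, and so did those of Lamb2 and Lamb1. With NIBR-LTSi, Lamb3 stood at 21.4 ± 0.5, Lamc1 at 8.79 ± 0.75, Lama5 at 1.36 ± 0.14, Lamb2 at 0.218 ± 0.028, Lama3 at 0.168 ± 0.009 and Lamb1 at 0.0406 ± 0.0096. There no neighbours in the order had overlapping ranges. The width of Lamb3 in the table is 5304 bases, against 6612 bases of merged exons in GENCODE M21, so its per-length level depends on the gene model. For the other members, Lama3 among them, the width equals the merged exons of all annotated transcripts. A gene expressed mainly as a shorter transcript would thus have its per-length level and its share understated.

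**Figure D2:**
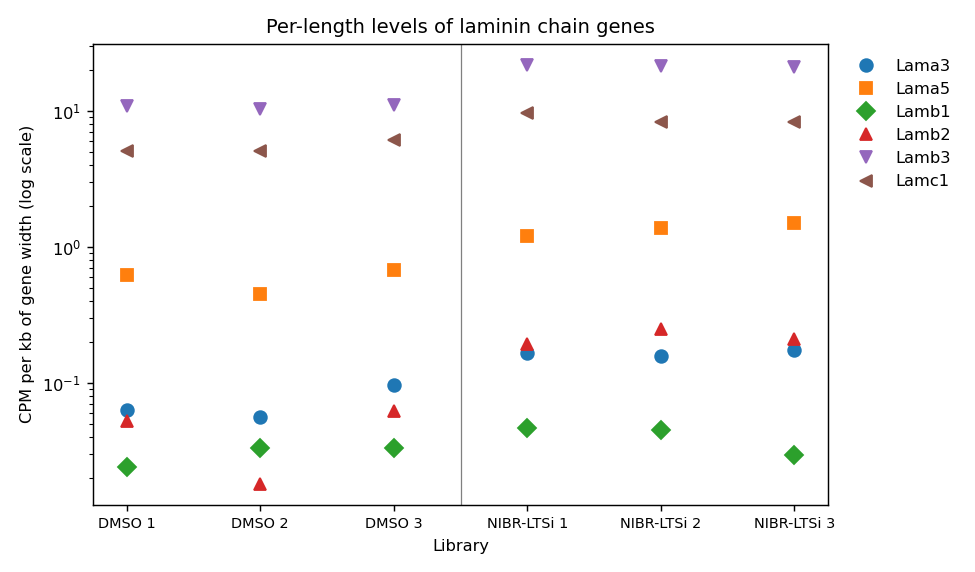
Per-length level (CPM per kb of deposited gene width, log axis) of 6 laminin chain genes (Lama1, with 1 read in all, is not drawn) in each of the 6 libraries. Lamb3 was the highest in every library and Lamb1 or Lamb2 the lowest. Lama5 lay between them and below Lamc1 in each library.

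Summed over the alpha members, the per-length level was 0.689, 0.511 and 0.773 CPM per kb in the DMSO libraries and 1.37, 1.53 and 1.67 in the NIBR-LTSi libraries. The beta members summed to 10.9, 10.3 and 11.2 against 22.1, 21.7 and 21.2. Alpha transcripts were thus the scarcest class in every library. The ratio of the group means was 2.32 for alpha, 2.0 for beta and 1.62 for Lamc1, and in an exact two-sided permutation test over the 6 libraries each sum gave p = 0.10, adjusted p = 0.10 over the 3 sums, where 0.10 is the smallest p that 3 against 3 libraries allow.

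Within the alpha class, Lama5 made up 89.1 ± 1.7% of the per-length level with DMSO and 88.8 ± 1.0% with NIBR-LTSi (exact permutation p = 1, adjusted p = 1 over the 6 shares of both classes). The share of Lama3 was 10.9 ± 1.7% and 11.1 ± 1.0%. These differences were smaller than the spread between libraries and changed sign when DMSO replicate 1 or NIBR-LTSi replicate 1 was left out. Within the beta class, Lamb3 held 99.3 ± 0.2% with DMSO and 98.8 ± 0.1% with NIBR-LTSi, while the share of Lamb2 was 0.483, 0.177 and 0.554% against 0.885, 1.14 and 0.994%. The shares of Lamb1, Lamb2 and Lamb3 each gave p = 0.10 (exact permutation, adjusted p = 0.20), again the smallest possible raw p.

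Relative to Lamc1, Lamb3 and the summed alpha members each lay higher in every NIBR-LTSi library than in any DMSO library. Lamc1 is the only gamma chain among the members, and ratios of transcripts do not show which chains join in a trimer. The per-length ratio of Lamb3 to Lamc1 was 2.14, 2.01 and 1.81 with DMSO and 2.26, 2.57 and 2.5 with NIBR-LTSi. That of the summed alpha members to Lamc1 was 0.136, 0.0996 and 0.126 with DMSO and 0.142, 0.184 and 0.200 with NIBR-LTSi. The gaps between the groups were narrow (exact permutation p = 0.10 each, the smallest that 3 against 3 libraries allow, adjusted p = 0.20 over 8 ratios, chosen after the values were seen). Lamb3 over the summed alpha members was 15.7, 20.2 and 14.4 with DMSO and 15.9, 14.0 and 12.5 with NIBR-LTSi, and those ranges overlapped (exact permutation p = 0.30, adjusted p = 0.40).

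**Figure D3:**
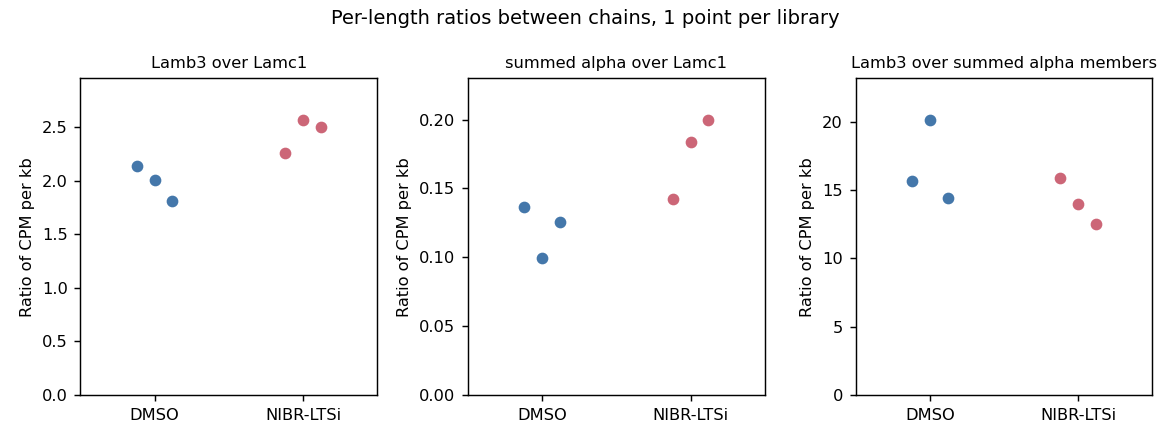
Ratios of per-length levels (CPM per kb over CPM per kb) between laminin chains, with 1 point per library and axes from 0. Lamb3 over Lamc1 reached 2.14 at most with DMSO and was at least 2.26 with NIBR-LTSi, the summed alpha members over Lamc1 reached 0.136 at most and was at least 0.142, and Lamb3 over the summed alpha members overlapped between the groups.

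RefSeq promoter windows of GRCm38.p6, running from 250 bases before to 50 bases after a transcript start, were at hand for 4 of the 7 members: Lama5, Lamb1, Lamb2 and Lamb3, the last with 2 start sites, called first and second here by their order in the table of windows. They were searched on both strands for GGAATG, the core bound by TEAD factors, the DNA-binding partners of YAP and TAZ, and for TGANTCA, the core bound by AP-1. Because TGANTCA had no match in these windows, an overlap between the motifs could not occur. GGAATG was found in 1 of the 5 windows, at the second start site of Lamb3, beside 14.7% of all 32851 windows in the table. TGANTCA was found in none of the 5, beside 7.81% of all windows. The match in Lamb3 (chr1:193302076-193302081, plus strand, read as CATTCC) begins 167 bases before the start at 193302243, inside an annotated exon of the transcript that begins at the first start site. A match is a description of letters and no evidence of binding, and absence from these windows says nothing about other sites. For the 3 members that rose and had a window, the part of 1 window each that lies before the start site and outside annotated exons is shown, because these genes rose together. Of the window at the second Lamb3 start only the 30 bases around the match are shown. Capitals mark the TEAD core.
Lamb3, first start, chr1:193301744-193301992, plus strand: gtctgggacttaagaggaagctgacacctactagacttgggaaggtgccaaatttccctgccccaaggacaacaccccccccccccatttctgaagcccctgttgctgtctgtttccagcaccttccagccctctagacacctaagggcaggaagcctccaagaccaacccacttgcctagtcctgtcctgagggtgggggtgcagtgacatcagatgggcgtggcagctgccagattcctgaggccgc
Lamb3, around the match, chr1:193302064-193302093, plus strand: gaggggaccccaCATTCCcagggagctctc
Lama5, chr2:180225860-180226109, minus strand: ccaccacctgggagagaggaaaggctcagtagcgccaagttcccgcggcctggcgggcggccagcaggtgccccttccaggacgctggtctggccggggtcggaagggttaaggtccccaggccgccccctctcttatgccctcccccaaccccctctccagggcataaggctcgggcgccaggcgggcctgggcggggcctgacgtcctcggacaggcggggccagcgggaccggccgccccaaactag
Lamb2, chr9:108479612-108479735, plus strand: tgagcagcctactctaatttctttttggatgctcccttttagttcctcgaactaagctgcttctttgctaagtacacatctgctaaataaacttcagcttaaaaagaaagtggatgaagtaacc

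The windows also differed in base makeup. That of Lama5 was 72.7% G and C, those of Lamb3 were each 59.3% and that of Lamb2 was 44.0%, so the 3 rising members with a window did not share a GC-rich start.

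Laminins are held at the cell by integrins, dystroglycan, syndecans and the tetraspanin-linked complexes around them. Of 12 laminin receptor genes, all tested, 6 were higher (22.8% of all tested genes), 2 were lower (19.2% of all tested genes) and 4 were not called. The list median was 0.12 on the log2 scale. Over the alternative settings the higher calls in this list ran from 4 to 7 and the lower calls from 2 to 3. The 6 rises ran from a log2 fold change of 0.15 for Itgb1 to 0.51 for Bcam, a laminin alpha 5 receptor. Bcam went from 2.66 ± 0.38 to 3.80 ± 0.61 CPM (edgeR adjusted p = 0.0387). It had 40 to 110 reads per library, and its result in the alternative settings is not given here. Sdc1, the heparan sulfate proteoglycan syndecan-1, was higher at 209 ± 1 CPM than the 179 ± 6 CPM of DMSO (log2 fold change 0.22 ± 0.04, edgeR adjusted p = 6.55e-04), and Dag1, which encodes dystroglycan, rose from 456 ± 20 to 528 ± 13 CPM (0.21 ± 0.04). Itgb1, the beta 1 integrin subunit shared by many receptors, rose by a log2 fold change of 0.15, a call lost without NIBR-LTSi replicate 2 (edgeR adjusted p = 0.0553). Itga7, a laminin-binding integrin subunit known from muscle, fell from 7.60 ± 0.05 to 5.16 ± 0.36 CPM.

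Neither hemidesmosomal integrin gene was called higher. Itga6, Itgb4, Itga3 and Cd151 were chosen for mention after the values were known. Itga6 was at 130 ± 3 and 124 ± 5 CPM (log2 fold change -0.08 ± 0.04, edgeR adjusted p = 0.185) and was called lower once the width trend was taken out (-0.17, adjusted p = 0.00724). Itgb4 was at 196 ± 12 and 196 ± 4 CPM (-0.01 ± 0.05, edgeR adjusted p = 0.925), with a sign that turned with library totals only and without DMSO replicate 1 or 3. Itga3, the partner of beta 1 integrin in binding alpha 3 and alpha 5 laminins, was at 301 ± 3 and 320 ± 1 CPM (0.09 ± 0.03, edgeR adjusted p = 0.0506), just on the far side of the threshold and called under 3 alternatives. Cd151, the tetraspanin bound to these integrins, fell from 101 ± 4 to 89.1 ± 1.2 CPM. Of the 3 linker genes Plec, Dst and Col17a1, neither of the 2 tested was called by edgeR (1 at an unadjusted p under 0.05, 1 in DESeq2, 0 in limma-voom). Over all tested genes 42.0% were called in either direction and 22.8% higher, so the lack of a call among 2 genes says little. Plec, the plectin that ties beta 4 integrin to keratin, was at 304 ± 67 and 433 ± 29 CPM (0.51 ± 0.18, edgeR adjusted p = 0.0889), and it was called higher without DMSO replicate 3 (adjusted p = 0.00136), in DESeq2 and after the width adjustment. Dst was at 104 ± 32 and 114 ± 48 CPM.

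Among 22 other basement membrane genes, 13 were tested, of which 8 rose (22.8% of all tested genes), 1 fell (19.2% of all tested genes) and 4 were not called, and the list median was 0.33 on the log2 scale. Col4a2 and Col18a1 passed the filter only through the NIBR-LTSi libraries. Nid1, the nidogen that bridges the gamma 1 chain and collagen IV, rose from 2.97 ± 0.09 to 14.5 ± 1.6 CPM (log2 fold change 2.28 ± 0.12, edgeR adjusted p = 3.31e-08). Its relative Nid2 was the more abundant nidogen by CPM at 31.3 ± 1.6 and 36.2 ± 1.2 and rose by 0.21 ± 0.06, a call lost in DESeq2 and without NIBR-LTSi replicate 3. Col4a2, a chain of the main basement membrane collagen, rose from 0.553 ± 0.160 to 2.54 ± 0.17 CPM, and its pair Col4a1 from 0.657 ± 0.162 to 2.04 ± 0.28 CPM. Npnt, the integrin ligand nephronectin, rose from 2.94 ± 0.15 to 10.1 ± 0.3 CPM, and Tinagl1 from 5.87 ± 0.93 to 10.6 ± 0.3 CPM.

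The member that fell was Ntn4, a netrin that binds laminin gamma 1 and can break laminin networks, from 16.3 ± 0.9 to 9.01 ± 0.25 CPM (log2 fold change -0.85 ± 0.08, edgeR adjusted p = 5.48e-06). Hspg2, the proteoglycan perlecan, was at 41.3 ± 11.4 and 43.0 ± 7.4 CPM and was not called (edgeR adjusted p = 0.901). Agrn, which encodes agrin, a bridge between laminin and dystroglycan, rose from 212 ± 25 to 266 ± 17 CPM (0.33 ± 0.09, edgeR adjusted p = 0.0285), a call lost with no low-count filter (0.0766) and when NIBR-LTSi replicate 2 (0.0792) or replicate 3 (0.0924) was left out. Bcam, Krt8, Krt18, Vil1, Nid2, Col4a1, Tinagl1, Hspg2, Agrn, Mmp14, Plec and Dst were likewise named after their values were seen.

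**Figure D4:**
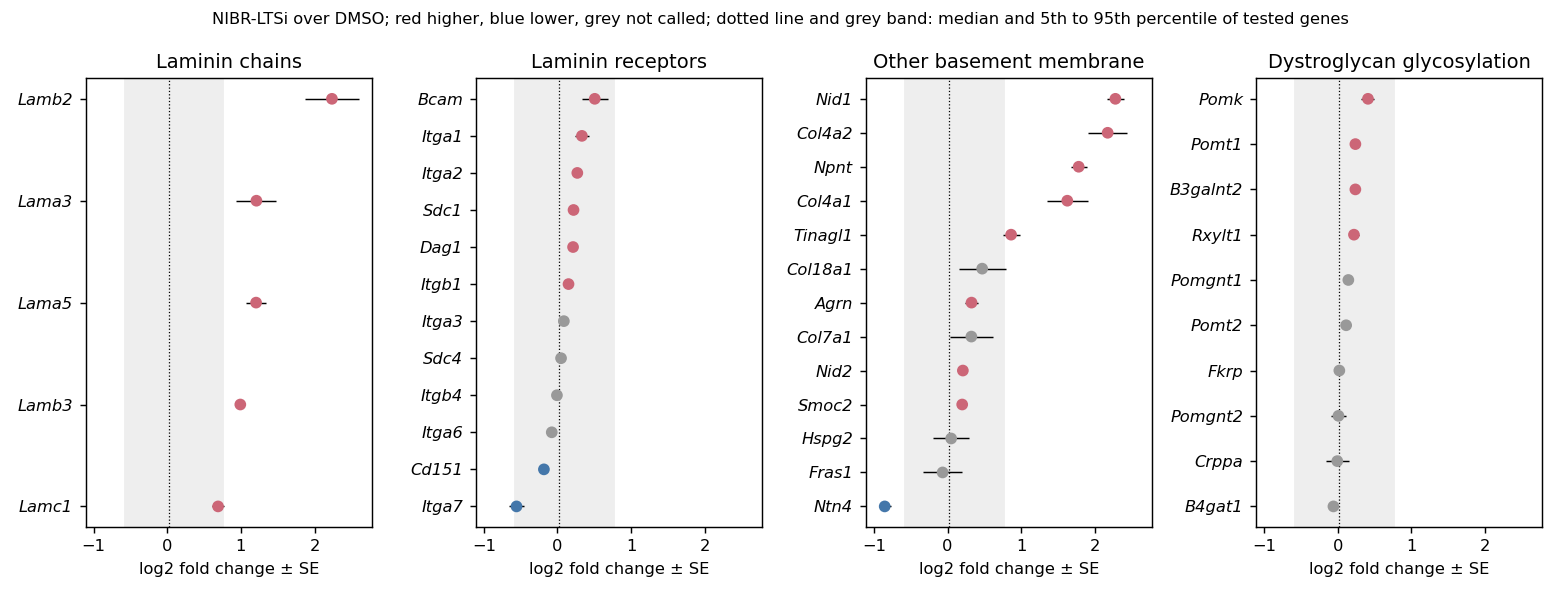
Log2 fold change (NIBR-LTSi over DMSO) with SE for the tested laminin chains, laminin receptors, other basement membrane genes and dystroglycan glycosylation genes. Red points were called higher, blue lower and grey not called; the dotted line is the median of all tested genes (0.02) and the grey band spans their 5th to 95th percentiles (-0.58 to 0.76). Of the 5 laminin chains shown, Lamc1 alone lay inside the band.

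Dystroglycan binds laminin through a sugar chain built by a dedicated set of enzymes. Of 10 such genes, all tested, 4 rose (22.8% of all tested genes), 0 fell (19.2% of all tested genes) and 6 were not called in edgeR, and the median log2 fold change was 0.13. The count that fell was 0 at an unadjusted p under 0.05 too, as in limma-voom and DESeq2. The kinase Pomk rose from 8.59 ± 0.54 to 11.5 ± 0.4 CPM (log2 fold change 0.41 ± 0.09, edgeR adjusted p = 0.00271), and the glycosyltransferase B3galnt2 from 31.6 ± 0.9 to 37.4 ± 1.1 CPM (0.24 ± 0.05, adjusted p = 0.00393). Pomt1, a protein O-mannosyltransferase, rose by 0.24 ± 0.06, and Rxylt1, a xylosyltransferase, by 0.22 ± 0.07 (edgeR adjusted p = 0.00600 and 0.0205). In DESeq2 both of these calls were lost (adjusted p = 0.0515 and 0.0869), and that of Rxylt1 was lost in edgeR after the width adjustment (0.0536), without DMSO replicate 1 (0.0986) or 3 (0.0527) and without NIBR-LTSi replicate 1 (0.0812) or 2 (0.0682). Of 10 proteases known to cut laminin chains, 3 were tested: Mmp7, the matrilysin of Paneth cells, rose from 11.4 ± 0.7 to 18.1 ± 0.7 CPM, Mmp14 was at 32.1 ± 0.9 and 31.5 ± 1.4 CPM, and Bmp1, which trims laminin and procollagen chains, fell from 7.43 ± 0.46 to 5.45 ± 0.79 CPM. The Bmp1 call was lost without DMSO replicate 1 (edgeR adjusted p = 0.0647) and without NIBR-LTSi replicate 2 (0.0560).

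The 5 chain calls held in each of the 15 alternative settings. Their log2 fold changes ranged over those settings from 1.08 to 1.47 for Lama3, from 1.07 to 1.31 for Lama5, from 1.92 to 2.51 for Lamb2, from 0.95 to 1.04 for Lamb3 and from 0.61 to 0.79 for Lamc1. The largest adjusted p was 0.0235, for Lama3 without DMSO replicate 1 in edgeR.

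**Figure D5:**
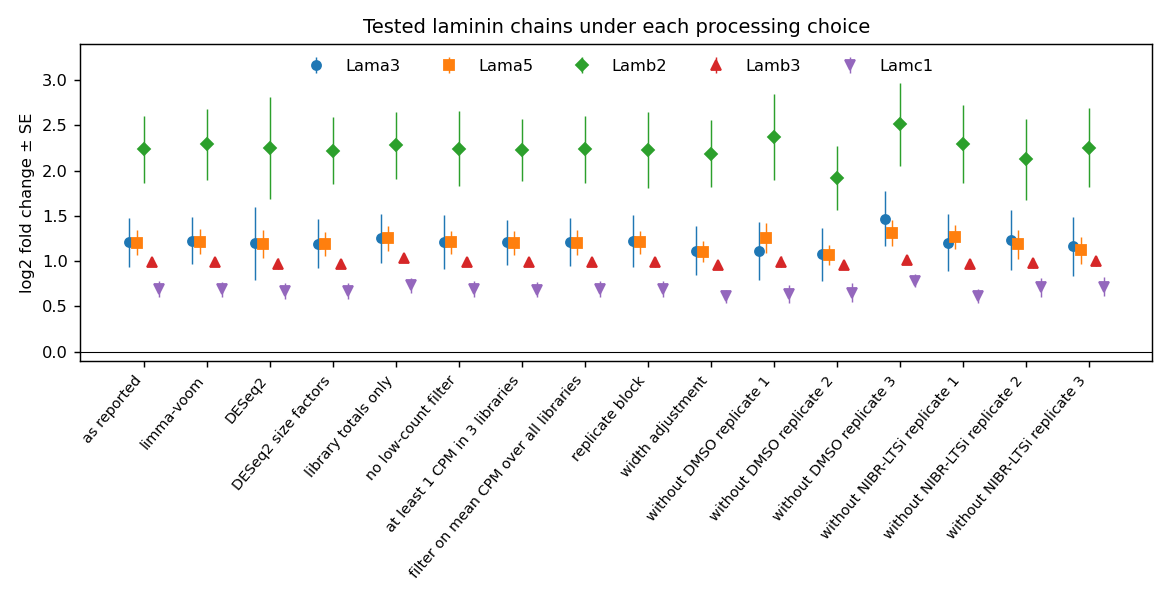
Log2 fold change with SE of the 5 tested laminin chain genes as reported and under each alternative (another test, normalisation or filter, the replicate block, the width adjustment, and each library left out). All points lie above 0, with Lamb2 the highest and Lamc1 the lowest in each setting.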

How the data were processed

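RNA was sequenced from 3 DMSO and 3 NIBR-LTSi organoid samples; per the labels' protocols, organoids were digested to single cells and total RNA entered a stranded messenger RNA kit. The authors deposited raw read counts per gene with 1 other value per gene, its width in bases. Per the submitters' processing notes the build was mm10 and edgeR was used; aligner, counter and strand setting: not given in the sources used here. Positions are RefSeq's for GRCm38.p6, the same assembly as mm10.

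Counts were filtered with filterByExpr (0.440 CPM in 3 libraries, before TMM) and then TMM-normalised. They were tested with edgeR 4.0.16 in R 4.3.3 (quasi-likelihood F-test, robust, group only, 4 residual degrees of freedom, two-sided). The SE is the absolute log2 fold change over the square root of F. Alternatives were limma-voom (limma 3.58.1), DESeq2 1.42.0, other normalisations and filters, a replicate block, a gene-width offset and each library left out. The procedure was tested on simulated data in which 200 of 12592 genes were changed. It recovered 69.4% of 1.5-fold, 93.0% of 2-fold and 98.5% of 4-fold changes, and 5.91% of its calls were false. The simulated data changed far fewer genes than were called here and held no trend with gene width. These rates may therefore not hold for the real libraries. Libraries of a group differed beyond sampling noise (chi-square per degree of freedom 4.56 to 11.8). No label says that the replicates came from separate cultures; the p-values then reflect only the spread among these samples, possibly a technical one. The members and gene lists were chosen with earlier results of these data known. Some genes of these lists are not reported here, and list counts leave them out. Besides the members, the genes named are the called ones of each list with the smallest p, at most 4, and the 3 nearest to the member with the largest rise; no called member fell, so none is given for a fall. Others are said to be named after their values were seen.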

Additional observations from a re-analysis of the deposited data

How the results depend on the processing

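The count of 5 members higher and 0 lower was the same in all 15 alternatives, as was the 1 lower call among other basement membrane genes. The deviations of same-numbered libraries from their group means correlated at 0.05, -0.30 and 0.56 for replicates 1 to 3. Pairs with unlike numbers ran from -0.55 to 0.53, so these values do not settle whether the numbers pair the samples. With the replicate block, 5 members were still called higher and Lama3 had an edgeR adjusted p of 0.00589. Of all tested genes, 39.3% were then called, against 42.0%. One hemidesmosome linker was called higher (value 1, against 0) in DESeq2 and after the width adjustment, with 0 to 1 over the left-out libraries; at 0 with edgeR, Plec and Dst had adjusted p-values of 0.0889 and 0.833. Of the dystroglycan glycosylation genes, 2 were called higher in DESeq2, against 4. Lower calls among proteases ran from 0 to 1 with a library left out. With each library left out, the difference in share (NIBR-LTSi minus DMSO, percentage points) ran from -0.74 to 0.92 for Lama3 and from -0.99 to 0.67 for Lama5, and their log2 ratio (Lama5 over Lama3) from -0.14 to 0.11. Log2 fold changes ran from -0.27 to 0.41 for Dst, from -0.10 to 0.30 for Hspg2, from -0.052 to 0.032 for Itgb4 and from -0.067 to -0.0054 for Mmp14. After the width adjustment Dst was at -0.090 and Hspg2 at -0.074; with library totals only Itgb4 was at 0.038 and Mmp14 at 0.018. The cause of these shifts was not tested. Depth limits Lama1, Lamb1 and Lamb2, with 1, 47 and 113 reads in all.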
